A study of Homo sapiens with 8 samples.

Results

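The genes of the MYC and MAX network were examined in an Ago2-RIP-Chip experiment on ST486 cells, a cell line from Burkitt lymphoma (BL). The members are MYC, MAX, MXD1, MXD3, MXD4, MXI1, MNT, MGA and MLX, 9 of the 16557 genes that the arrays represent through a RefSeq accession with a symbol. They were chosen by name, and every non-control probe whose RefSeq accession belongs to 1 of them was taken, 19 probes in all. ST486 cells were transduced with the empty retroviral vector MXW-PGK-IRES-GFP (EV-ST486, here EV cells) or with the same vector carrying miR-155 (miR-155-ST486, here miR-155 cells), and in both cases GFP-positive cells were sorted. RNA was taken from the total (T) fraction of the lysate and from the fraction immunoprecipitated (IP) with anti-Ago2 antibody, Ago2 being the Argonaute protein that miRNAs guide to transcripts. The IP/T ratio of a probe therefore gives the enrichment of a transcript in the Ago2 IP relative to the other transcripts. It does not give the share of the transcript that was bound, because both fractions were normalized to the same signal distribution. The comparison of the ratio between the vectors asks whether ectopic miR-155 changed the enrichment. No IP with a control antibody was among the samples. The 4 RNA samples were labelled with either dye, Cy3 or Cy5, and each vector had 1 array with total RNA in Cy3 against IP RNA in Cy5 and 1 array the other way round, so there were 4 arrays and 8 channels.

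MYC is a transcription factor of the basic helix-loop-helix leucine zipper (bHLHZip) class, and its overexpression after translocation to an immunoglobulin locus is the hallmark of BL. It binds DNA as a heterodimer with MAX and promotes genes of growth, ribosome formation and metabolism. The proteins MXD1, MXD3, MXD4, MXI1 and MNT compete for MAX and recruit SIN3 and histone deacetylases to repress transcription, MGA pairs with MAX in a Polycomb-related repressor complex, and MLX is the MAX-like partner of a parallel branch that answers to glucose.

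The miRNA added to the cells gives a duplex with the following mature strands, shown because base-pairing through the seed, here bases 2 to 8 in capitals, is how a miRNA-loaded Ago2 finds most of its targets.
hsa-miR-155-5p: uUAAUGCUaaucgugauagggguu
hsa-miR-155-3p: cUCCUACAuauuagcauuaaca
The sequences were taken from RefSeq (GRCh38.p14), where the 5p strand lies at chr21:25573983-25574006 and the 3p strand at chr21:25574022-25574043, both on the plus strand. Transcript sequences of the members were not analysed here, so no site is assigned to any of them.

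Each condition was 1 RNA sample. The Cy3 and Cy5 labellings are technical repeats, no test between conditions was possible, and the gap between orientations measures labelling and hybridization error only. EV and miR-155 arrays lay on different slides (2 slides, of which 0 held both vectors), so vector and slide cannot be told apart. The total fractions gave the profile of a B cell line. The B cell markers CD22, CD79A, CD79B and MS4A1 were detected in all 4 total labellings, and the probes of CD37 and PAX5 in 0. The germinal centre markers CD38 and MME were detected in all 4. T cell markers were detected in 0 of 3 genes, the single fibroblast gene in 0 labellings and the myeloid markers LYZ and CSF1R in 0, and CD14 in 3. Of the epithelial markers, KRT8 was detected in all 4 and KRT18 in 3 by 1 probe each, and EPCAM in 0. The probe of MIR155HG, the host gene of miR-155, was detected in 3 channels and had a mean log2 signal of 3.89 in the EV total fraction and 6.83 in total RNA with miR-155. Whether it detects the transcript of the vector was not tested.

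Of the 19 member probes, 17 were detected in all 8 channels and differed by at most 2-fold between the labellings of each sample, and these were kept among 15529 probes in all. All 9 genes had at least 1 such probe, and MYC, MAX, MXD4, MGA and MLX had 2 or more. Probes of a gene are numbered by falling mean signal, which serves only as a name, since signals of different probes are not comparable. The 2 probes removed were MXD1 probe 2, detected in 3 channels, and MGA probe 3, detected in 0.

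Ago2 enrichment was high for MNT and for 1 probe each of MYC and MXD1 in both vectors, although MXD1 was below a ratio of 2 after normexp correction of the background, and the other member probes were near or below equal signals in IP and total RNA, apart from MAX probe 3 with miR-155. In EV cells 3 of the 17 kept member probes reached an IP/T ratio of 2, namely MYC probe 1, MNT and MXD1 probe 1, against 12.1% of all kept probes. In miR-155 cells the same 3 probes were joined by MAX probe 3, 4 of 17 against 12.2%. A ratio of at most 0.5 was found for 1 member probe, MYC probe 2, in each vector, against 10.0% of all probes in EV and 9.83% in miR-155 cells. Without the Cy3 labelling of the EV total or of the EV IP RNA 2 probes were at most 0.5 in EV cells, and without that of the miR-155 total RNA 0 were in miR-155 cells. The median ratio of the member probes was 0.768 in EV and 1.11 in miR-155 cells, beside 0.900 and 0.882 over all kept probes. With either orientation alone the median in miR-155 cells was below 1 (log2 values of -0.0700 and -0.0282). Taken probe by probe, the IP/T ratio of miR-155 over that of EV cells had a median of 1.09, beside 0.983 over all kept probes. In EV cells the orientations of MYC probe 1 (5.16 and 5.65) and MNT (4.22 and 5.31) overlapped, those of MXD1 probe 1 (3.97 and 2.31) lay below both, and the other 14 probes lay between 0.356 and 1.5.

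**Figure D1:**
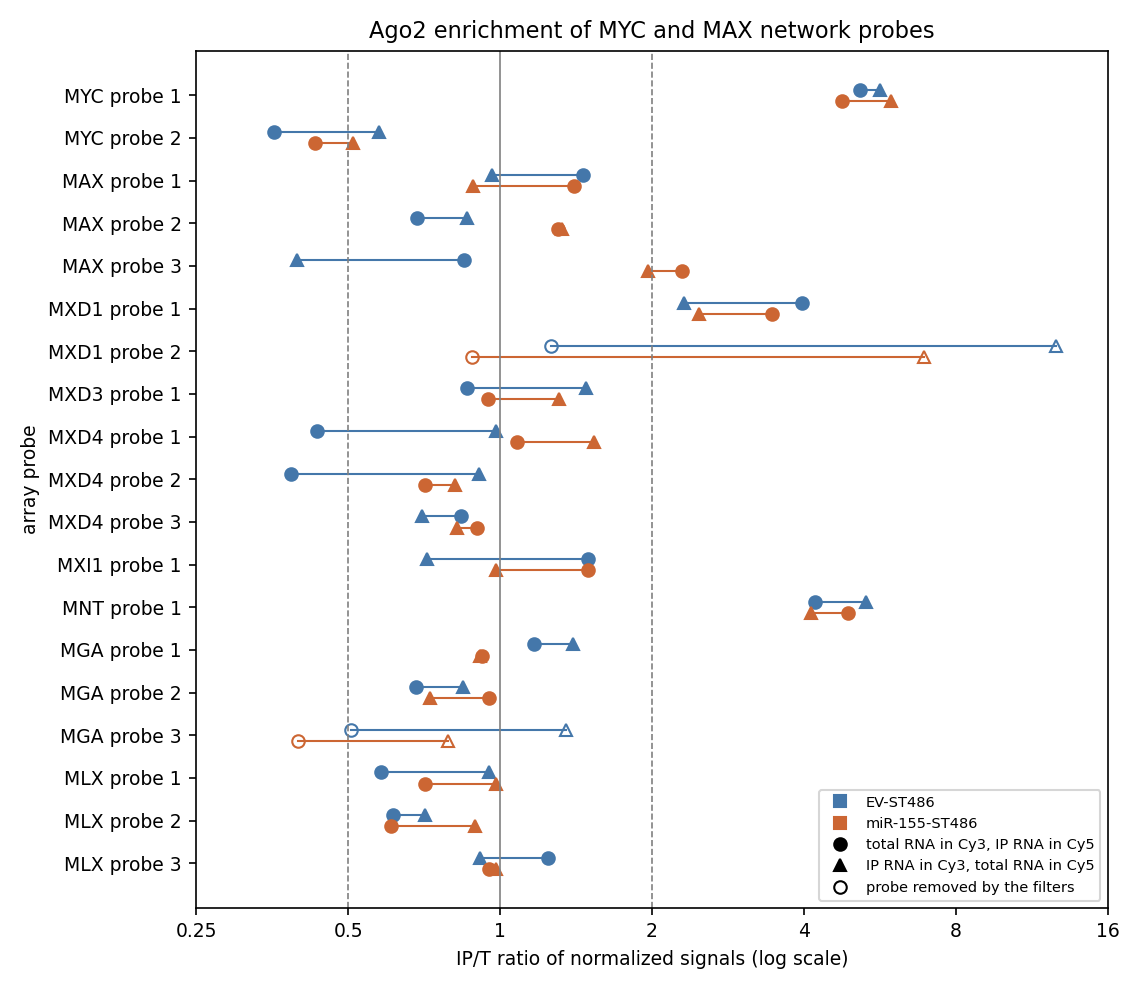
IP/T ratio (log axis) of the 19 member probes in EV (blue) and miR-155 cells (orange), with 1 point per dye orientation joined by a line, and open symbols for the 2 probes removed by the filters. MYC probe 1, MXD1 probe 1 and MNT lie right of the dashed line at 2 in both vectors and orientations, and MYC probe 2 lies left of or close to the dashed line at 0.5.

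MYC was represented by a pair of probes with the same accession, NM_002467, and they gave opposite answers. MYC probe 1 (A_23_P215956), which is printed 10 times on each array, had normalized log2 signals of 12.84 (Cy3) and 12.76 (Cy5) in the EV total fraction, 15.26 and 15.20 in the EV IP fraction, 13.15 and 13.10 in total RNA with miR-155 and 15.68 and 15.40 in the miR-155 IP fraction. Every IP channel was above every total channel. Its IP/T ratio was 5.40 in EV cells and 5.32 in miR-155 cells (4.75 and 5.96 by orientation), above 97.3% and 97.2% of all kept probes, so MYC mRNA seen by this probe was among the more Ago2-enriched transcripts with and without ectopic miR-155.

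MYC probe 2 (A_24_P38363) had log2 signals of 13.11 (Cy3) and 12.99 (Cy5) in the EV total fraction, 12.19 and 11.63 in the EV IP fraction, 12.60 and 12.33 in total RNA with miR-155 and 11.36 and 11.38 in the miR-155 IP fraction. Here every IP channel was below the total channels of the same vector. Its IP/T ratio was 0.453 in EV (0.356 and 0.576) and 0.469 in miR-155 cells (0.430 and 0.512), above 6.7% and 7.4% of all kept probes. In neither vector did both orientations lie at or below 0.5.

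The IP/T ratios of the MYC probes differed 11.9-fold in EV and 11.3-fold in miR-155 cells. These spans were wider than those of 99.7% and 99.6% of the 2150 genes with at least 2 kept probes. A span of 2-fold or more was found in 2 of the 5 member genes with several probes, MYC and MAX, in EV cells, against 20.2% of the 2150 genes, and in MYC alone in miR-155 cells, against 14.4%. In either vector it was again MYC and MAX, against 22.8%. MAX spanned 2.05-fold in EV cells and under 2-fold without the Cy5 labelling of the EV total or EV IP RNA. The probe sequences and their places in the transcript were not analysed here, and the part of probe position, alternative transcripts or cross-hybridization in the MYC difference was not tested.

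**Figure D2:**
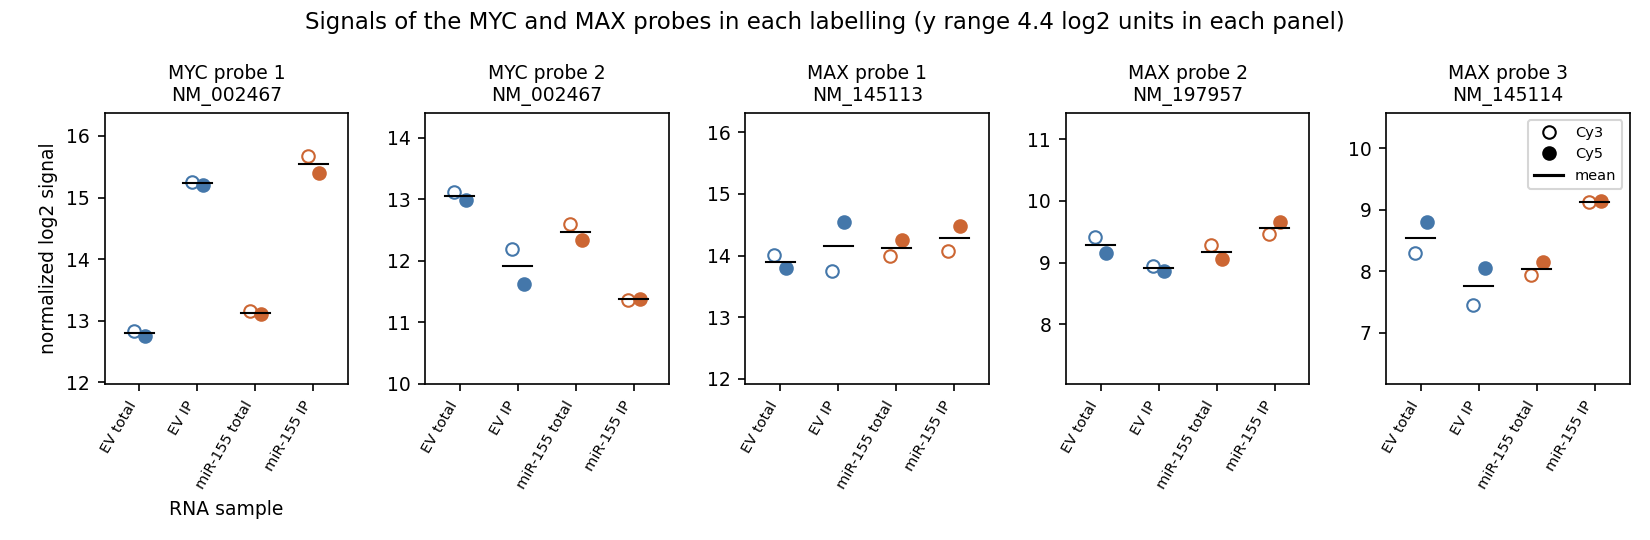
Normalized log2 signal of the MYC and MAX probes in the 4 RNA samples, with Cy3 as open points, Cy5 as filled points and a bar at their mean, and a separate y range of equal height for each probe. IP signals of MYC probe 1 lie above and those of MYC probe 2 below the total signals in both vectors, and MAX probe 3 has its highest signals in the miR-155 IP fraction.

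The 10 spots of MYC probe 1 showed how far a single array can place this value. On the EV array with total RNA in Cy3 the IP/T ratio of a spot ran from 2.91 to 6.36 with a median of 5.49, and 1 spot lay well below the other 9. With IP RNA in Cy3 it ran from 5.58 to 6.91 (median 6.22). The miR-155 arrays gave 4.53 to 5.04 (median 4.70) and 5.40 to 5.95 (median 5.71). All 40 spots of the 4 arrays were above 2. Within each orientation the median was lower on the miR-155 array, at 4.70 against 5.49 and at 5.71 against 6.22, before quantile normalization. Across orientations, the median of the miR-155 array with IP RNA in Cy3 lay between the medians of the EV arrays.

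**Figure D3:**
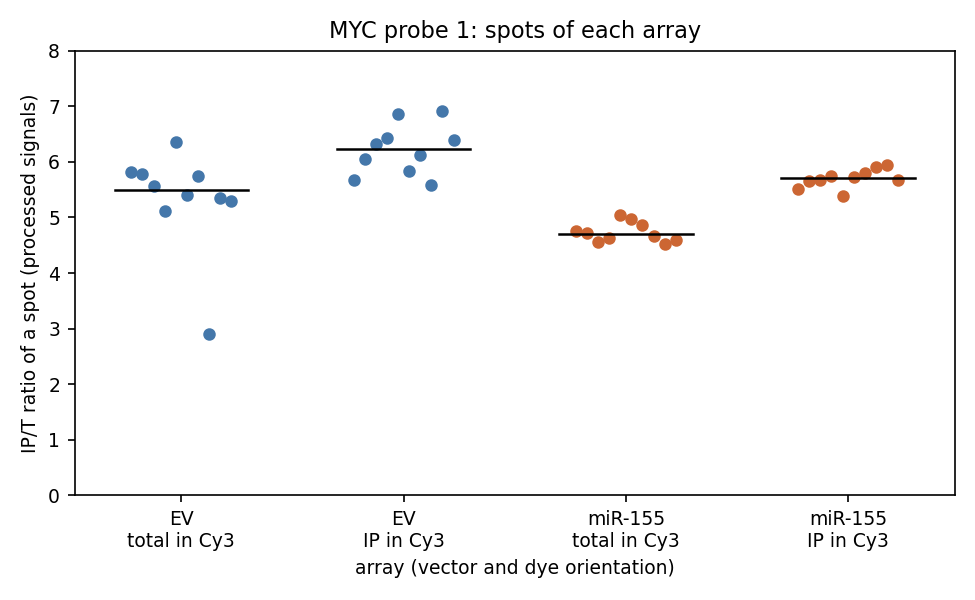
IP/T ratio of each of the 10 spots of MYC probe 1 on each of the 4 arrays, from processed signals before quantile normalization, with a bar at the median. Every spot lies above 2, and the spots of the miR-155 arrays spread less than those of the EV arrays.

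The miR-155/EV ratio, the IP/T ratio of miR-155 over that of EV cells, was 0.985 for MYC probe 1 (0.921 and 1.05 by orientation) and 1.04 for MYC probe 2 (1.21 and 0.889). Neither had the same direction in both orientations. The probes whose 8-channel profiles were most like that of MYC probe 1, among 11042 kept probes of other genes, belonged to RNH1, a ribonuclease inhibitor (root mean square difference 0.083 log2 units), CRTC2, a CREB coactivator (0.101), and CDC25A, a cell cycle phosphatase (0.107). Their IP/T ratios in EV cells were 5.12, 4.89 and 6.22.

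MAX, the shared partner of the network, was the member whose probes differed most in their response to miR-155. MAX probe 1 (NM_145113) had log2 signals of 14.00 (Cy3) and 13.81 (Cy5) in the EV total fraction, 13.75 and 14.55 in the EV IP fraction, 14.00 and 14.26 in total RNA with miR-155 and 14.08 and 14.48 in the miR-155 IP fraction. The channels of the 4 samples overlapped. Its IP/T ratio was 1.19 in EV and 1.11 in miR-155 cells, on opposite sides of 1 by orientation in each, and its miR-155/EV ratio was 0.939 (0.962 and 0.916).

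MAX probe 3 (NM_145114) had log2 signals of 8.30 (Cy3) and 8.80 (Cy5) in the EV total fraction, 7.46 and 8.06 in the EV IP fraction, 7.94 and 8.15 in total RNA with miR-155 and 9.12 and 9.14 in the miR-155 IP fraction. The miR-155 IP channels were above all 6 other channels. This gave an IP/T ratio of 0.579 in EV (0.848 and 0.395) and 2.13 in miR-155 cells (2.30 and 1.97). Its miR-155/EV ratio of 3.67 (2.71 and 4.98) was above 99.9% of all kept probes, and it was the only member probe with a ratio of at least 2, 1 of 17 against 1.15% of all probes. With 1 labelling left out at a time the ratio lay between 2.98 and 4.52, and MXD4 probe 1 also reached 2 without the Cy5 labelling of EV total or miR-155 IP RNA or the Cy3 labelling of EV IP or miR-155 total RNA (2.10 to 2.55). No member probe (0 of 17) had a ratio of at most 0.5, against 0.477% of all probes.

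MAX probe 2 (NM_197957) lay between these. Its log2 signals were 9.41 (Cy3) and 9.16 (Cy5) in the EV total fraction, 8.94 and 8.87 in the EV IP fraction, 9.28 and 9.05 in total RNA with miR-155 and 9.46 and 9.66 in the miR-155 IP fraction. The miR-155 IP channels were again the highest. The ratio of IP to total was 0.768 in EV (0.686 and 0.861) and 1.32 in miR-155 cells (1.30 and 1.33). The miR-155/EV ratio was 1.71 (1.90 and 1.54).

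The accessions are those that the array design gives to the probes and name different MAX transcripts, but which transcripts each probe detects was not analysed here. After normexp correction of the background, MAX probe 3 in miR-155 cells had IP/T ratios of 1.58 with quantile and 1.73 with loess normalization, below 2, and a miR-155/EV ratio of 1.97 in both. MAX probe 3 was past neither limit in these settings. The probes most like MAX probe 3 in profile were 2 probes of RPL17, a ribosomal protein gene with near-identical copies in the genome (root mean square difference 0.188 and 0.211), and a probe of GYG1, the primer of glycogen synthesis (0.228). Those most like MAX probe 1 belonged to ZNF8, SCRN3 and APLP2 (0.118, 0.127 and 0.131).

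Among the MAX-binding repressors, MNT and MXD1 stood with MYC. MNT (NM_020310), the most widely expressed of these antagonists, had log2 signals of 10.55 (Cy3) and 10.42 (Cy5) in the EV total fraction, 12.83 and 12.62 in the EV IP fraction, 10.77 and 10.92 in total RNA with miR-155 and 12.96 and 13.06 in the miR-155 IP fraction. Every IP channel was above every total channel. IP/T was 4.73 in EV and 4.49 in miR-155 cells (4.89 and 4.13), and the miR-155/EV ratio was 0.949 (1.16 and 0.777).

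MXD1 (NM_002357), an antagonist associated with differentiation, had log2 signals on probe 1 of 7.32 (Cy3) and 7.62 (Cy5) in the EV total fraction, 8.83 and 9.30 in the EV IP fraction, 7.05 and 7.50 in total RNA with miR-155 and 8.81 and 8.84 in the miR-155 IP fraction. Again all IP channels were above all total channels. IP/T was 3.03 in EV and 2.93 in miR-155 cells (3.46 and 2.48), and the miR-155/EV ratio was 0.968. With normexp correction the ratio in EV cells was 1.80 after quantile and 1.60 after loess normalization, below 2, and in miR-155 cells it was 1.70 and 1.82, whereas MYC probe 1 (4.78 and 4.99 in EV cells) and MNT (3.79 and 3.92) stayed above it. MXD1 probe 2 could not be used as a second measurement. It was well above background in 3 of 8 channels, all of them Cy3, and its IP/T ratio in EV cells was 1.26 with total RNA in Cy3 and 12.6 with IP RNA in Cy3.

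The remaining repressors were near or below an IP/T ratio of 1. MXD3 (NM_031300) had ratios of 1.13 in EV and 1.11 in miR-155 cells, and MXI1 (NM_130439) of 1.04 and 1.21, each on both sides of 1 by orientation. The 3 probes of MXD4 (NM_006454) had IP/T ratios of 0.652, 0.591 and 0.767 in EV and 1.29, 0.760 and 0.859 in miR-155 cells. All 3 were below 1 in EV cells in both orientations. The miR-155/EV ratio was 1.98 for MXD4 probe 1 (2.49 and 1.57), 1.29 for probe 2 (1.85 and 0.896) and 1.12 for probe 3 (1.07 and 1.17). The orientations of probes 1 and 2 overlapped, and those of probe 2 lay on both sides of 1.

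MGA probe 1 (NM_001080541) gave a ratio of 1.28 in EV (1.17 and 1.40) and 0.916 in miR-155 cells (0.920 and 0.912), and MGA probe 2 ratios of 0.759 and 0.830. The miR-155/EV ratio was 0.717 for probe 1 (0.786 and 0.654) and 1.09 for probe 2 (1.39 and 0.861). The 3 probes of MLX (NM_170607) had IP/T ratios of 0.743, 0.659 and 1.07 in EV and 0.834, 0.737 and 0.967 in miR-155 cells, with miR-155/EV ratios of 1.12, 1.12 and 0.907. MLX, the partner of MLXIP and MLXIPL, was thus past an IP/T limit of 2 or 0.5 on 0 of its 3 probes.

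The IP/T ratio can move through either fraction, so the signals of the vectors were also compared within each fraction. Bulk arrays cannot tell a lower level per cell from fewer cells that hold a transcript. In the total fraction 4 of 17 member probes were at least 1.5-fold lower in miR-155 than in EV cells, against 4.12% of all kept probes, and 0 were at least 1.5-fold higher, against 5.37%. They were MXD3, MXD4 probes 1 and 2 and MYC probe 2. The median over the member probes was 0.919, beside 1.01 over all kept probes.

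MXD3 had log2 signals of 9.40 (Cy3) and 9.34 (Cy5) in the EV total fraction and 8.70 and 8.51 in total RNA with miR-155, and 9.90 and 9.18 against 8.90 and 8.62 in the IP fraction. Both fractions were lower with miR-155 without overlap, with a miR-155 over EV ratio of 0.588 in total (0.614 and 0.563) and 0.580 in IP RNA (0.676 and 0.497). It was the only member probe at least 1.5-fold lower in the IP fraction, 1 of 17 against 6.16% of all probes. Its IP ratio was 0.674 with normexp and loess and 0.79 without quantile normalization, neither of them 1.5-fold lower, and 0.58 relative to the shifted median in the latter.

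MXD4 was lower with miR-155 on all 3 probes in the total fraction. MXD4 probe 1 had log2 signals of 10.88 (Cy3) and 10.44 (Cy5) in the EV total fraction and 9.87 and 9.70 in total RNA with miR-155, and the groups did not overlap. The total ratio was 0.545 for probe 1 (0.497 and 0.597), 0.591 for probe 2 (0.562 and 0.622) and 0.671 for probe 3 (0.749 and 0.601). In the IP fraction the same probes had ratios of 1.08, 0.760 and 0.752, and probes 1 (1.24 and 0.936) and 2 (1.04 and 0.557) lay on both sides of 1 by orientation. With normexp correction the total ratio of probe 2 was 0.90 after quantile and 0.82 after loess normalization, while probe 1 (0.54 and 0.52) and probe 3 (0.67 and 0.69) hardly moved.

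The MYC probes again disagreed. In total RNA, MYC probe 1 was 1.26 times as high in miR-155 as in EV cells (1.24 and 1.27) and MYC probe 2 was at 0.666 (0.700 and 0.634). The IP fraction gave 1.24 and 0.690, so that each probe had like ratios in both fractions. MAX showed the opposite arrangement. MAX probe 3 was at 0.706 in total RNA (0.783 and 0.636) and at 2.59 in IP RNA (2.12 and 3.16), and MAX probe 2 at 0.919 and 1.57. These were the 2 member probes at least 1.5-fold higher in the IP fraction, 2 of 17 against 6.42% of all probes. MAX probe 1 was at 1.17 and 1.1. With normexp correction the IP ratio of MAX probe 2 was 1.30 after quantile and 1.27 after loess normalization, below 1.5, and that of MAX probe 3 was 1.67 and 1.68. Without quantile normalization, where the median IP ratio of all kept probes was also shifted by 0.44 on the log2 scale, 6 member probes were at least 1.5-fold higher in IP RNA, namely MYC probe 1 (1.55), MAX probes 2 (2.17) and 3 (3.52), MNT (1.68) and MLX probes 1 (1.56) and 2 (1.57). Relative to the shifted median they were MAX probes 2 (1.60) and 3 (2.59) alone.

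For the other members the total ratio was 1.28 for MNT (1.17 and 1.41), 0.872 for MXD1 probe 1, 1.01 for MXI1, 1.48 for MGA probe 1 (1.44 and 1.53) and 0.997 for MGA probe 2. The MLX probes lay between 0.906 and 1.01. MGA probe 1 was therefore close to the 1.5-fold limit in total RNA and level in IP RNA (1.06), and the second MGA probe did not share the difference. Without quantile normalization the total signals of all kept probes shifted upwards in miR-155 cells, to a median of 0.44 on the log2 scale. The ratio of MXD3 was then 0.81, that of MYC probe 2 was 0.93, those of MXD4 probes 1 and 3 were 0.75 and 0.92, and MAX probe 2, MXD1 probe 1 and MLX probe 3 lay above 1 (1.26, 1.14 and 1.24). At least 1.5-fold higher in total RNA were then 4 member probes, MYC probe 1 (1.72), MAX probe 1 (1.55), MNT (1.78) and MGA probe 1 (2.04), and relative to the shifted median only MGA probe 1 (at 1.5). Relative to that median the probes named before these were, in the same order, at 0.60, 0.68, 0.55, 0.67, 0.93, 0.84 and 0.91.

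**Figure D4:**
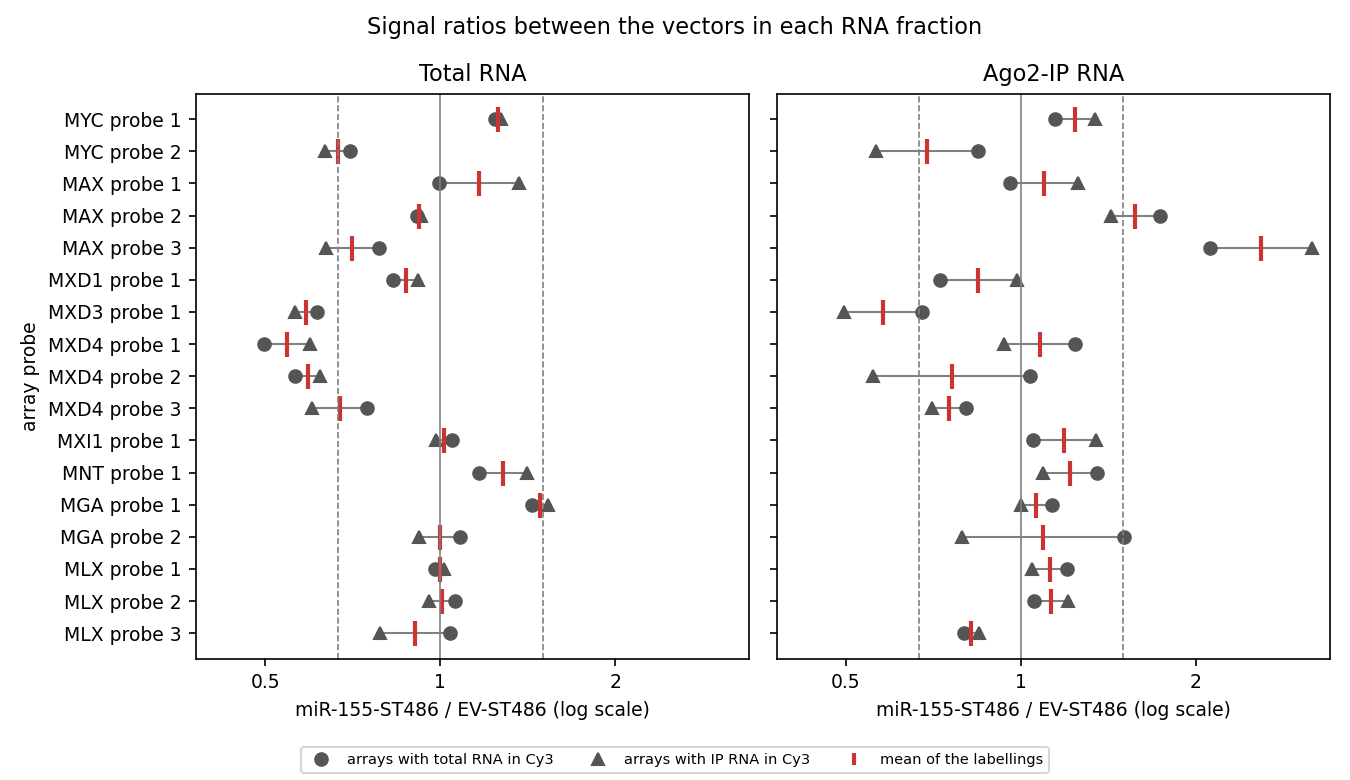
Signal of miR-155 over EV cells (log axis) for the 17 kept member probes in total RNA (left) and Ago2-IP RNA (right), with points for each dye orientation, a red bar at their mean and dashed lines at 1.5-fold in each direction. MXD3 and the MXD4 probes lie low in total RNA, and MAX probes 2 and 3 lie high in IP RNA only.

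Genes that work with the network were described by lists of names. Of the other bHLHZip genes (MYCN, MYCL, MLXIP and MLXIPL), 2 of 11 probes were kept. The kept probe of MLXIP, the MLX partner also called MondoA, had IP/T ratios of 4.16 in EV and 4.75 in miR-155 cells. The MLXIP probes removed by the filters were at 0.589 and 0.856, at 0.619 and 1.14, and, detected in 0 channels, at 1.59 and 2.13. Among 30 kept probes of 23 genes for cofactors and regulators, 5 in each vector reached an IP/T ratio of 2, beside 12.1% and 12.2% of all kept probes, and 3 in EV and 2 in miR-155 cells were at most 0.5, beside 10.0% and 9.83%. FBXW7, the ubiquitin ligase subunit that targets MYC for degradation, had ratios of 9.32 and 9.35. PIM1, a kinase that phosphorylates MYC, had ratios of 7.97 and 5.88, and SKP2, another ligase subunit acting on MYC, of 3.53 and 5.21. The others past 2 were E2F6, a repressor found in complexes with MGA (2.24 and 2.05 on 1 probe and 2.16 and 1.96 on another, while its remaining 2 kept probes were at 1.93 and 1.73 and at 0.939 and 1.2), and USP28, a deubiquitinase of MYC, in miR-155 cells (1.98 and 2.36). The USP28 probe was detected in 5 channels. At the other end were 1 probe of NCOR1, a corepressor, at 0.315 and 0.364, and 1 probe of RUVBL1, an ATPase that binds MYC, at 0.286 and 0.374. The NCOR1 probe was detected in 4 channels, and the NCOR1 probes removed by the filters were at 0.825 and 0.697 and at 0.882 and 0.808. The other RUVBL1 probe was at 0.674 and 0.821. L3MBTL2, another partner of MGA, was at 0.436 and 0.576 on a probe detected in 5 channels and at 0.739 and 0.730 on its other probe. In total RNA 1 of the 30 probes was at least 1.5-fold higher in miR-155 cells (TRRAP, a scaffold of histone acetyltransferases recruited by MYC, at 1.69) and 0 were lower, beside 5.37% and 4.12% of all kept probes. E2F6, USP28, L3MBTL2 and TRRAP were named after their values were seen.

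Of 67 kept probes of 37 genes widely described as activated by MYC, 5 in each vector reached an IP/T ratio of 2, again beside 12.1% and 12.2% of all kept probes, and 6 in EV and 8 in miR-155 cells were at most 0.5, beside 10.0% and 9.83%. The enriched ones were both probes of CDC25A (6.22 and 5.04 in EV, 5.62 and 4.84 in miR-155 cells), both probes of PPAT, the first enzyme of purine synthesis (4.58 and 3.95, then 3.50 and 3.28), and the probe of HSPE1, a mitochondrial chaperonin (2.25 and 3.34). At most 0.5 in both vectors and each orientation was only a probe of EIF2S1, a translation initiation factor, at 0.401 and 0.381. The other EIF2S1 probe was at 0.913 and 1.15. The kept probes of PHB1, named after their values were seen, were at 0.616, 0.462 and 0.385 in EV and at 0.464, 0.407 and 0.431 in miR-155 cells. Of 5 kept probes for genes described as repressed by MYC, 2 reached an IP/T ratio of 2 in each vector. They were CDKN1B, which encodes the cell cycle inhibitor p27, at 16.3 and 22.8, and CDKN1A, which encodes p21, at 3.78 and 3.87. The share of all kept probes was again 12.1% in EV and 12.2% in miR-155 cells.

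In total RNA the genes described as activated by MYC were mostly higher in miR-155 cells. Of the 67 probes, 16 probes of 13 genes were at least 1.5-fold higher and 0 were at least 1.5-fold lower, beside the 5.37% and 4.12% of all kept probes. The median ratio was 1.26, and 51 probes were above 1 in both orientations and 4 below, whereas over all kept probes 37.3% were above and 34.5% below. At least 1.5-fold higher in each orientation were 5 probes, against 1.65% of all kept probes. They belonged to HK2, a hexokinase (2.04 and 1.89), NCL, the nucleolar protein nucleolin (1.72 and 3.42), PKM, a pyruvate kinase (1.61 and 1.56), EIF4E, the cap-binding initiation factor (1.53 and 1.63), and GNL3, a nucleolar GTPase (1.52 and 1.63), and were chosen after their values were seen. The number of probes at least 1.5-fold higher was 10 with normexp and loess, 9 with total RNA in Cy3 alone and 8 without the Cy5 labelling of the EV total fraction. It was 49 without quantile normalization, where the median of all probes shifted by the amount given for the members. The shares of all kept probes past this limit in these settings were not counted. Of the 5 kept probes of genes described as repressed by MYC, 0 were at least 1.5-fold higher and 0 at least 1.5-fold lower in total RNA. Their median ratio was 1.13, and 2 probes were above 1 and 2 below in both orientations. Slide and vector cannot be told apart here either.

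**Figure D5:**
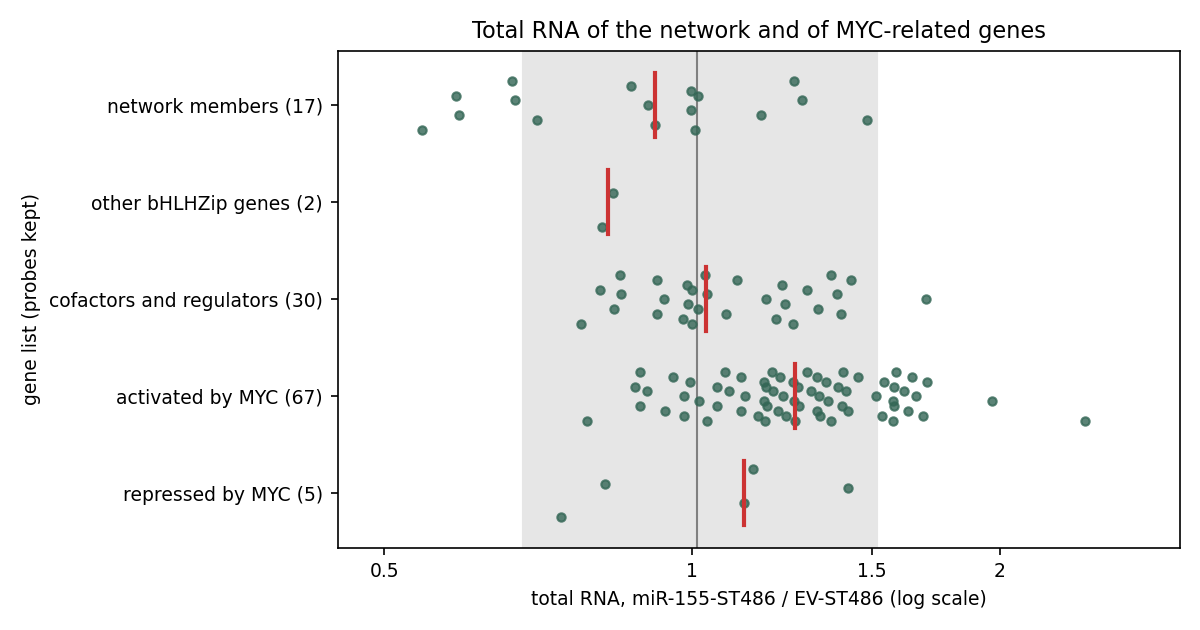
Total RNA signal of miR-155 over EV cells (log axis) for the kept probes of the network and of the 4 gene lists, with 1 point per probe and a red bar at the median of each list. The grey line is the median of all kept probes and the grey area runs from their percentile 5 to their percentile 95. The probes of genes described as activated by MYC have a median of 1.26, and those of the network members of 0.919.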

How the data were processed

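Total RNA and Ago2-IP RNA of ST486 cells with the empty vector or miR-155, 4 RNA samples of n = 1 per condition, were measured on 4 two-colour Agilent whole genome arrays. The authors used Feature Extraction 10.5.1.1 to obtain the deposited intensity of each spot, from which background had been subtracted and which had been corrected for dye within the array, per the file headers. Files of channels from 1 array were identical, so arrays were counted once and the channel of the sample's dye was read. A deposited table of log2 values, prepared by the authors through quantile normalization over the 8 channels and filters on detection and dye difference, served as an alternative.

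Following the study's methods, the intensities of 43376 non-control spots were averaged for 41000 probes, set to at least 1, transformed to log2 and quantile-normalized over the 8 channels. A probe counted as detected when flagged positive, significant and well above background. Probes were kept if detected in 4 or more channels (19469) and if no sample differed by over 2-fold between its labellings (15529). Labellings were averaged on the log2 scale. Dye correction and background subtraction act most on dim probes. Saturated spots numbered 0. Symbols came from the RefSeq accession on the arrays, matched for 23958 probes, and no gene coordinates were used. With 1 RNA per condition no test was run, and the number of arrays limits the precision.

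Every member probe is named. Of the lists, genes are named with an IP/T ratio of at least 2 or at most 0.5 in both vectors and each orientation, or a miR-155/EV ratio past the same limits in each orientation, up to 5 per list and direction, and others were named after their values were seen. Some cell type markers are not reported here. Likeness is the root mean square difference of centred 8-channel log2 profiles. Members and lists were chosen with earlier results of these data known. The comparisons within the total and IP fractions were added after values were seen.

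Alternatives were normexp correction (offset 50, the 19 spots with a local background above 500 set to the channel median) with quantile or with loess and Aquantile normalization, no quantile normalization, 75th percentile scaling, the deposited log2 values, detection in 8 channels or no detection filter, no dye filter, each orientation alone, outlier spots left out, a 1.5-fold limit, the limit in each orientation, and each labelling left out. The procedure was run on simulated channels with known ratios and noise of the same size for every probe. These channels held no slide or dye effect, so the run does not bear on either. Calculations were made in R 4.3.3 with limma 3.58.1 and in Python 3.11.15 with pandas 2.3.3, numpy 2.4.6 and matplotlib 3.10.9.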

Additional observations from a re-analysis of the deposited data

Results flagged for a closer look

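For 4 member probes the IP/T ratio lay on opposite sides of 1 in EV and miR-155 cells, in both labellings of each, and the difference was not tested. The share of all kept probes with such a pattern was not counted. MAX probe 3 was below 1 in EV and above 1 in miR-155 cells, with a miR-155/EV ratio of 3.67. MAX probe 2 had the same pattern with a ratio of 1.71, and MXD4 probe 1 with a ratio of 1.98. MGA probe 1 was above 1 in EV and below 1 in miR-155 cells, with a ratio of 0.717. The other kept probes of MAX, MXD4 and MGA did not share these patterns. With normexp correction the ratios were 1.97 for MAX probe 3 with either normalization, 1.44 and 1.45 for MAX probe 2, 1.85 and 1.84 for MXD4 probe 1, and 0.96 and 0.98 for MGA probe 1, after quantile and after loess normalization in this order. The IP/T ratio of MGA probe 1 was then 1.01 in EV and 0.965 in miR-155 cells after quantile normalization. After loess normalization it was above 1 in both vectors (1.07 and 1.05), so the pattern was absent there.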

How the results depend on the processing

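The number of member probes reaching an IP/T ratio of 2 in EV cells (3) stayed within 1.5 times under each alternative run, as did the number with a miR-155/EV ratio of at most 0.5 (0). With normexp correction and quantile normalization, 2 member probes reached 2 in miR-155 cells, 0 were at most 0.5 there, the miR-155/EV ratio reached 2 for 0, the median log2 IP/T was -0.197 in EV and 0.0314 in miR-155 cells, and 1 gene spanned 2-fold. With normexp, loess and Aquantile the numbers were 2, 0 and 0, with 0 also at most 0.5 in EV cells, a median of -0.0689 there and 1 gene spanning 2-fold. With total RNA in Cy3 alone, 3 probes were at most 0.5 in EV cells, the miR-155/EV ratio reached 2 for 2, the medians were -0.237 and -0.0700, and 4 genes spanned 2-fold. With IP RNA in Cy3 alone, 0 were at most 0.5 in miR-155 cells and the medians were -0.130 and -0.0282. A 1.5-fold limit gave 5 probes at the lower limit in EV cells and 3 with a raised miR-155/EV ratio. When the limit had to be met in each orientation, 0 probes were at most 0.5 in either vector.

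Leaving out 1 labelling at a time gave 1 to 2 probes at most 0.5 in EV and 0 to 1 in miR-155 cells, 1 to 2 whose miR-155/EV ratio reached 2, medians of -0.419 to -0.170 and of -0.0484 to 0.153 (log2 values of -0.380 and 0.153 with all labellings), and 1 to 2 genes spanning 2-fold. Without quantile normalization, which kept 15 of the 17 member probes, 0 were at least 1.5-fold lower in total RNA, where 4 were in the values reported and 3 to 6 under the other alternatives. There 4 were at least 1.5-fold higher in total RNA, where 0 were in the values reported, and 6 in IP RNA, where 2 were. No value changed sign while past its limit. The causes were not tested. No paired analysis was possible because each condition is 1 RNA sample. Signal over background limits the dimmer probes, of which MXD1 probe 2 and MGA probe 3 gave no usable ratio.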
